A study of Homo sapiens with 16 samples.

Results

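The genes described here are MYC, its partner MAX and 52 factors that make ribosomes, 54 genes of the 22445 gene IDs in the processed table. They were chosen by symbol, matched through GENCODE v29, and all 54 were found, were above the low-count filter and were tested. RNA was sequenced from Molm14 cells, a human line of KMT2A-rearranged acute myeloid leukaemia, in 4 groups of 4 libraries. Cells labelled iDOT1L had 0.16 uM EPZ5676, an inhibitor of the H3K79 methyltransferase DOT1L. Cells labelled iEZH2 had 0.3 uM GSK126, an inhibitor of the H3K27 methyltransferase EZH2. Combo cells had both compounds at those doses, and DMSO cells had the vehicle. All were grown for 7 days, with medium and compound renewed on day 4. The labels number the libraries of each group 1 to 4 without saying whether they came from separate cultures, so the p-values speak of the spread between libraries, which may be technical.

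Ribosome production begins in the nucleolus, where RNA polymerase I transcribes the precursor of the large ribosomal RNAs. Small nucleolar ribonucleoproteins then guide its chemical modification, and large sets of processing factors cut and fold it into the small and large subunits. MYC, a transcription factor that binds E-box DNA as a dimer with MAX, is known to drive many of these genes, and its activity is a known dependency of KMT2A-rearranged leukaemia.

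Values are normalised counts, recovered from the deposited log2 values. The libraries were estimated to hold 20.6 M to 27.2 M reads each, and the 54 genes together took 0.83% to 1.26% of a library's normalised counts. Myeloid markers fitted the line, with CD33 between 717 and 974, SPI1 between 2145 and 3299 and MEIS1 between 668 and 1793 across all 16 libraries. The T-cell gene CD3D reached at most 31.3 and the B-cell gene MS4A1 9.16, while the epithelial gene KRT8 was between 161 and 467 in every library. Because libraries were scaled to each other, a change shared by all transcripts cannot be seen, and in bulk RNA fewer cells of a type and less RNA per cell cannot be told apart.

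MYC RNA was not called in any of the 7 comparisons made without a replicate block. MYC (ENSG00000136997, chr8:127735434-127741434, plus strand) had 7363, 9435, 7777 and 7409 in iDOT1L, 7640.1, 11059, 9196 and 7838 in iEZH2, 8918, 9900.5, 9592 and 8516 in Combo, against 8406, 8631, 8322 and 7686 in DMSO. The 4 groups overlapped, and the highest library was iEZH2 replicate 2. In limma the log2 fold change against DMSO was -0.05 with iDOT1L (95% interval -0.28 to 0.17, adjusted p = 0.862). With iEZH2 it was 0.10 (interval -0.13 to 0.32, limma adjusted p = 0.727), and with Combo 0.16 (interval -0.06 to 0.38, limma adjusted p = 0.358). These intervals leave room for differences of up to 0.38 on the log2 scale. Between treatments, the MYC difference was 0.21 for Combo against iDOT1L (limma adjusted p = 0.328) and -0.15 for iDOT1L against iEZH2 (limma adjusted p = 0.495).

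MAX, the obligate dimer partner of MYC, was likewise not called in any comparison. MAX counts were 795, 961, 641 and 742 in iDOT1L, 573, 764, 772 and 636 in iEZH2, 643, 750.2, 634 and 637 in Combo, against 647, 771, 724 and 607 in DMSO. All 4 groups overlapped, and iDOT1L replicate 2 was the highest library. The log2 fold change was 0.18 with iDOT1L (interval -0.08 to 0.45), -0.01 with iEZH2 (interval -0.27 to 0.26) and -0.04 with Combo (interval -0.31 to 0.22). The lowest limma adjusted p of MAX against DMSO was 0.497, with iDOT1L.

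**Figure D1:**
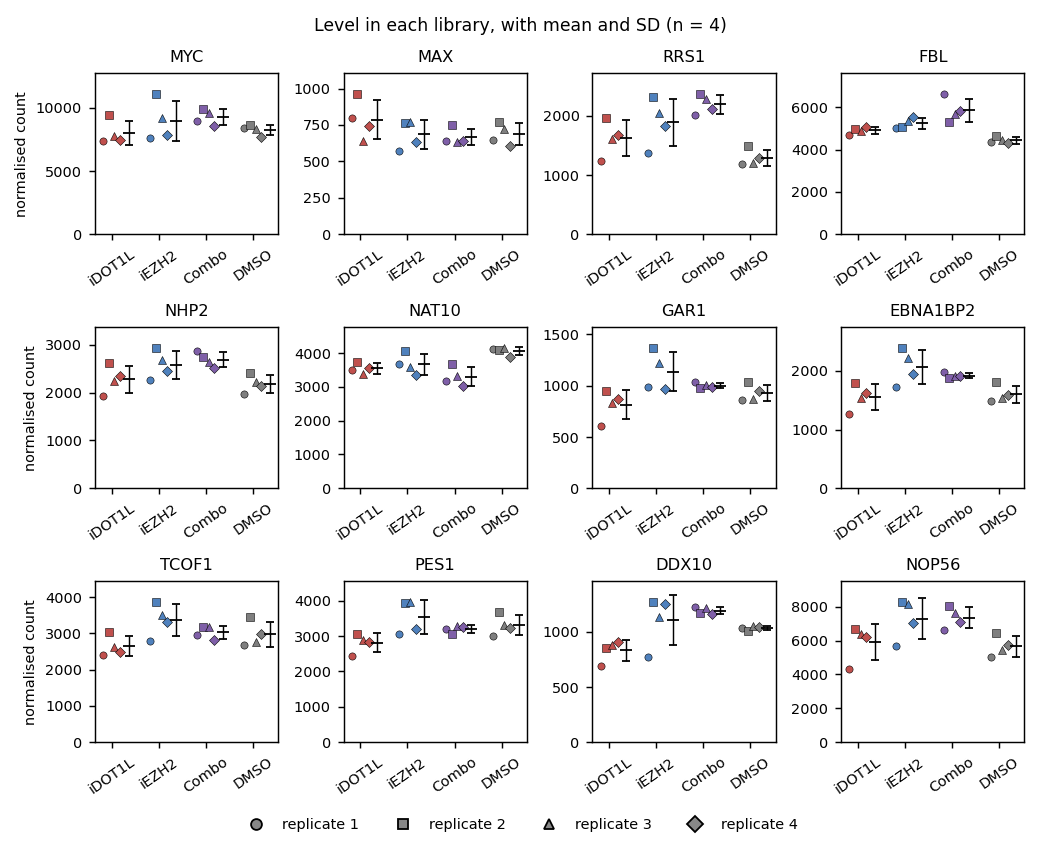
Normalised count (vertical axes, linear and starting at 0) of 12 genes in each library, by group from iDOT1L to DMSO; symbols mark the replicate number, and the bar beside each group is its mean and SD (n = 4). RRS1 and FBL in Combo lie above every DMSO library, NAT10 in Combo lies below, and MYC overlaps in all 4 groups.

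With iDOT1L alone, 0 of the 54 genes passed an adjusted p of 0.05 in limma, where 6.25% of all 22331 tested genes did. At an unadjusted p under 0.05 there were 4 of the 54 genes and 3972 of all tested genes. The median log2 fold change was -0.08 over the 54 genes and 0.01 over all tested genes, and 45 of the 54 lay below 0, as did 48.78% of all tested genes. Leaving out 1 library gave medians of the 54 from -0.14 to -0.02, the last without iDOT1L replicate 1. In the single-agent and DMSO groups, libraries numbered 1 or 2 deviated together more with the same number than with any other. In replicates 3 and 4 another number correlated more in 5 of 6 cases. A second fit took the replicate number as a block. It held all 16 libraries, also those of Combo, which the numbers paired only in part. Combo replicate 2 correlated at 0.3943 to 0.4815 with the same number in other groups, and Combo replicate 3 at 0.0362 to 0.0528. Its values are given beside those without the block for the single-agent and DMSO groups. With that block 6 of 54 passed (12.2% of all genes): RRS1 rose, and RRP12, PES1, POLR1B, NAT10 and IMP4 fell. Without replicate 1 in the blocked fit 4 passed (12.4% of all genes), and without replicate 2, 3 or 4 none did (0 each), beside 7.82%, 6.07% and 7.52% of all genes.

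With iEZH2 alone, 1 of the 54 genes passed in limma, RRS1, which rose, beside 3.35% of all genes. The median log2 fold change was 0.13 over the 54 genes and 0.02 over all tested genes, and 45 of the 54 lay above 0, as did 52.11% of all genes. Leaving out 1 library gave medians from 0.05 (without iEZH2 replicate 2) to 0.19. In the fit with the replicate block 9 of 54 passed and all rose (9.76% of all genes in either direction, 3.87% upward). These were RRS1, NOP56, EBNA1BP2, MYBBP1A, FBL, NIP7, NPM1, UBTF and NHP2. Leaving replicate 1 out of the blocked fit gave 15 calls (11.4% of all genes), and leaving out replicate 2, 3 or 4 gave 4, 1 and 3, beside 3.53% to 6.34% of all genes.

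With both compounds, 4 of the 54 genes passed in limma: RRS1, FBL and NHP2 rose (7.22% of all genes did) and NAT10 fell (8.80% did). The median log2 fold change was 0.07 over the 54 genes and 0.03 over all genes. It was 0.04 without DMSO replicate 1 or Combo replicate 2, 0.14 without DMSO replicate 2, and 0.15 when libraries were scaled to equal upper quartiles. In 9 of the 54 every Combo library lay above every DMSO library (9.62% of all genes), and in 1 every Combo library lay below (10.3% of all genes). Leaving out Combo replicate 4 left 2 calls, beside 12.1% of all genes. Combo libraries also held more mRNA for ribosomal proteins, 11.9% to 16.2% of all counts, against 10.5% to 11.5% in DMSO. Mitochondrial mRNA was 2.66% to 3.54% in Combo, against 1.66% to 2.50% in DMSO, and the part of either share in the Combo calls was not tested.

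**Figure D2:**
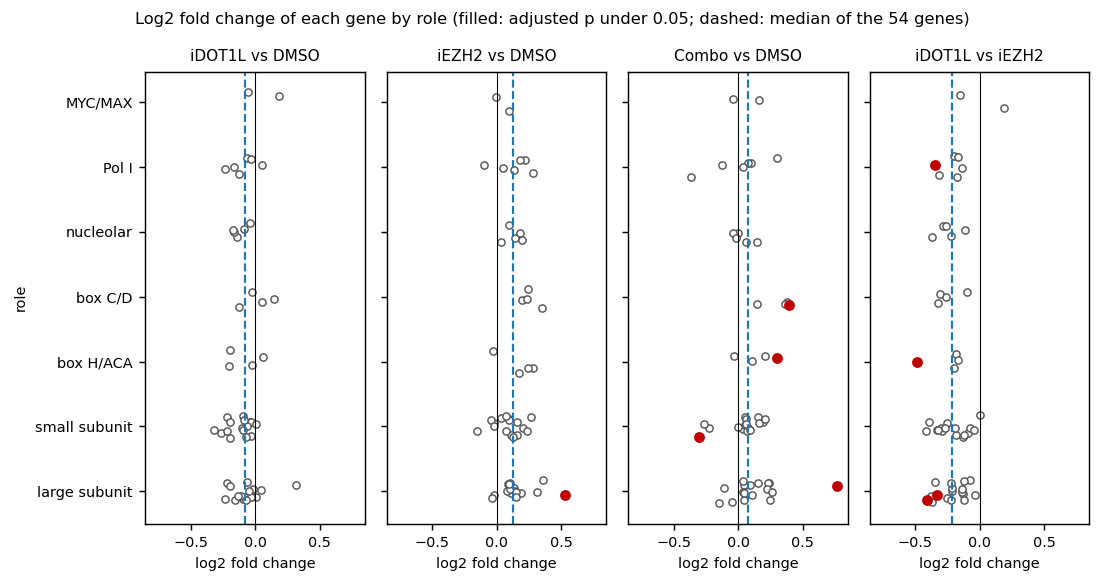
Log2 fold change (horizontal axes) of the 54 genes, by role down the page, in each treatment against DMSO and in iDOT1L against iEZH2. Filled points passed an adjusted p of 0.05 in the fit without a block, and the dashed line is the median of the 54 genes, which is -0.08, 0.13, 0.07 and -0.21 from left to right.

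The RNA polymerase I group holds 6 genes, of which none was called against DMSO without the block. POLR1A and POLR1B encode the largest catalytic subunits of the polymerase, POLR1C a subunit shared with polymerase III, and UBTF a factor that keeps ribosomal DNA open for transcription. POLR1A had 2535, 3286, 3086 and 2564 in iDOT1L, 2933, 4142, 3005 and 2931 in iEZH2, 1878, 3696, 2275 and 2150.1 in Combo, against 2971, 3992, 2576 and 3053 in DMSO. Combo replicate 1 was the lowest of the 16 libraries and iEZH2 replicate 2 the highest, and the Combo fold change was -0.36 ± 0.18 (SE, limma adjusted p = 0.197). MYBBP1A, a MYB-binding nucleolar protein, had 3596, 4294, 4077 and 3973 in Combo, against 2918, 3508, 3233 and 3317 in DMSO. These 2 groups did not overlap, and the difference was 0.30 ± 0.13 (limma adjusted p = 0.133). MYBBP1A in iEZH2, at 3047, 4607, 4378 and 3876, overlapped DMSO, with a difference of 0.28 (limma adjusted p = 0.298, or 0.0141 with the replicate block). POLR1B differed from DMSO with iDOT1L by -0.23 (limma adjusted p = 0.354, or 0.0335 with the block). UBTF averaged 4918 ± 436 in iDOT1L, 5534 ± 613 in iEZH2 and 5035 ± 775 in Combo, against 4754 ± 591 in DMSO (SD, n = 4 each), and its groups overlapped. UBTF passed with iEZH2 in the blocked fit alone, at 0.22 (limma adjusted p = 0.0453 with the block and 0.379 without). TCOF1, described further on, averaged 2642 ± 279 in iDOT1L, 3374 ± 443 in iEZH2 and 3032 ± 175 in Combo, against 2969.6 ± 342 in DMSO. POLR1C averaged 1068 ± 94.6 in iDOT1L, 1228 ± 146 in iEZH2 and 1191 ± 68.2 in Combo, against 1113 ± 55.2 in DMSO, with differences of at most 0.13 from DMSO.

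Among the multifunctional nucleolar proteins, NPM1 and NCL are the abundant histone and RNA chaperones nucleophosmin and nucleolin, NOLC1 is a scaffold for small nucleolar ribonucleoproteins, and DDX21 is an RNA helicase. None of the 5 genes was called against DMSO without the block. NPM1 had 38419, 39079, 40773 and 40078 in iDOT1L, 42892, 46684, 48995 and 46622 in iEZH2, 48671, 41013, 47730 and 43236 in Combo, against 39820, 41186, 40309 and 41732 in DMSO. Every iEZH2 library lay above every DMSO and every iDOT1L library, while Combo overlapped DMSO through its replicate 2. The NPM1 difference was 0.18 ± 0.07 with iEZH2 (limma adjusted p = 0.172, or 0.0423 with the block). Of the 31-base words of NPM1 transcripts 23.3% also occur in other genes, so its level is uncertain. NCL had 29225, 37707, 31841 and 32569 in iDOT1L, 37493, 48362, 40956 and 33644 in iEZH2, 33534, 39169, 37490 and 33652 in Combo, against 34566, 42546, 32894 and 34709 in DMSO. Its groups overlapped throughout, with replicate 2 the highest library of each. DDX21 averaged 15735 ± 2361 in iDOT1L, 18955 ± 3879 in iEZH2 and 17358 ± 2209 in Combo, against 17595 ± 2151 in DMSO (SD, n = 4 each). It was lower in iDOT1L than in iEZH2, at a log2 difference of -0.26, in the blocked fit alone (limma adjusted p = 0.0069 with the block and 0.309 without). NOLC1 averaged 7096 ± 926 in iDOT1L, 7730 ± 1437 in iEZH2 and 7326 ± 1030 in Combo, against 7526 ± 1013 in DMSO. LYAR, a zinc-finger protein that promotes ribosomal RNA synthesis, averaged 1224 ± 196 in iDOT1L, 1591 ± 334 in iEZH2 and 1426 ± 51.4 in Combo, against 1376 ± 183 in DMSO. Their differences from DMSO lay between -0.17, for LYAR with iDOT1L, and 0.19, for LYAR with iEZH2, and 0 of these 3 genes passed against DMSO with or without the block.

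The box C/D ribonucleoproteins carry out 2'-O-methylation of ribosomal RNA, and 1 of the 4 genes, FBL, was called with Combo. FBL encodes the methyltransferase fibrillarin itself (ENSG00000105202, chr19:39834458-39846414, minus strand). FBL had 4699.5, 4986, 4857 and 5074 in iDOT1L, 4992, 5070.5, 5356 and 5546 in iEZH2, 6606, 5277, 5687 and 5806 in Combo, against 4352, 4658, 4440.2 and 4288 in DMSO. Each treated group lay wholly above DMSO, and Combo replicate 1 was the highest library. FBL rose with Combo by 0.39 ± 0.07 on the log2 scale (SE, limma adjusted p = 0.00098), and the call held when any 1 of the 8 libraries was left out. The FBL differences with iEZH2 and iDOT1L were 0.24 (limma adjusted p = 0.0884) and 0.15 (limma adjusted p = 0.322). With the block, FBL passed with iEZH2 at an adjusted p of 0.0273.

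NOP56 and NOP58 are the paired core proteins that hold fibrillarin on the guide RNA, and RRP9 is the U3-specific protein of the same particle. NOP56 had 4340, 6699, 6386 and 6242 in iDOT1L, 5678, 8276, 8156 and 7058 in iEZH2, 6610.2, 8072, 7627 and 7128 in Combo, against 5020.3, 6445, 5429.6 and 5762 in DMSO. Combo lay wholly above DMSO, whereas iEZH2 overlapped DMSO through its replicate 1. The NOP56 difference was 0.35 ± 0.13 with iEZH2 (limma adjusted p = 0.181, or 0.00321 with the block) and 0.38 ± 0.13 with Combo (limma adjusted p = 0.0616). RRP9 had 1139, 1321, 1250 and 1180.3 in Combo, against 867, 1062, 902 and 977 in DMSO, with no overlap and a difference of 0.36 (limma adjusted p = 0.0737). NOP58 was 0.14 in the same comparison (limma adjusted p = 0.461).

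The box H/ACA ribonucleoproteins pseudouridylate ribosomal RNA, with DKC1 (dyskerin) as the enzyme and NHP2, GAR1 and NOP10 as its partners. NHP2 (ENSG00000145912, chr5:178149460-178153967, minus strand) had 1926, 2609, 2244 and 2343 in iDOT1L, 2257, 2928, 2684 and 2453 in iEZH2, 2868, 2736, 2635 and 2509 in Combo, against 1962, 2404, 2225 and 2129 in DMSO. Combo lay wholly above DMSO, and both single-agent groups overlapped it. NHP2 rose with Combo by 0.30 ± 0.10 (limma adjusted p = 0.045), and the call held in 1 of 8 fits that left out a library, with adjusted p from 0.0334 to 0.14. Exons of RMND5B on the opposite strand cover 27.4% of NHP2's exonic bases, and whether the counting used strand is not given in the sources used here. DKC1 had 4071, 4804, 4625 and 4196 in Combo, against 3363, 4389, 3619.8 and 3986 in DMSO, with overlap and a difference of 0.21 (limma adjusted p = 0.244). NOP10 differed by at most -0.20 from DMSO, with iDOT1L (limma adjusted p = 0.339).

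Of the 16 small-subunit processing genes, NAT10 alone was called against DMSO without the block. NAT10 (ENSG00000135372, chr11:34105602-34147670, plus strand) encodes the acetyltransferase that forms N4-acetylcytidine in 18S ribosomal RNA. NAT10 had 3491, 3743, 3388 and 3549.8 in iDOT1L, 3686, 4063, 3574 and 3338 in iEZH2, 3181, 3684, 3325 and 3029.5 in Combo, against 4133, 4102, 4144 and 3874 in DMSO. Every Combo and every iDOT1L library lay below every DMSO library, and iEZH2 overlapped DMSO through its replicate 2. NAT10 fell with Combo, with a log2 fold change of -0.30 ± 0.08 (limma adjusted p = 0.0115). The call held in 7 of 8 fits that left out a library and was lost without Combo replicate 4 (adjusted p = 0.0501, limma). The NAT10 difference was -0.20 with iDOT1L (limma adjusted p = 0.165, or 0.0261 with the block) and -0.15 with iEZH2 (limma adjusted p = 0.364).

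DDX10, a helicase of early pre-ribosomes, differed most between Combo and iDOT1L. DDX10 (ENSG00000178105, chr11:108665025-108940930, plus strand) had 693, 853, 877 and 904 in iDOT1L, 776, 1269, 1136 and 1248 in iEZH2, 1223, 1172, 1213 and 1161 in Combo, against 1033, 1010.5, 1052 and 1039.6 in DMSO. All iDOT1L libraries lay below, and all Combo libraries above, every DMSO library. DDX10 was higher in Combo than in iDOT1L by 0.53 ± 0.12 (limma adjusted p = 0.0288), the only call of 54 genes in that comparison beside 2.58% of all genes. The call held in 3 of 8 fits that left out a library. The DDX10 difference from DMSO was -0.32 with iDOT1L (limma adjusted p = 0.158) and 0.21 with Combo (limma adjusted p = 0.301).

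UTP20 and HEATR1, large scaffold proteins of the small-subunit processome, spread widely within groups. UTP20 had 2068, 2835, 2238 and 1848 in iDOT1L, 2862, 4293, 2954 and 2132 in iEZH2, 1710.4, 3193, 2195 and 2024 in Combo, against 2775, 3496, 2212 and 2341 in DMSO. Replicate 2 was the highest library of UTP20 in every group, the groups overlapped, and its Combo difference was -0.26 ± 0.21 (limma adjusted p = 0.462). IMP4, a protein of the U3 particle, was -0.22 with iDOT1L (limma adjusted p = 0.283, or 0.0176 with the block), and RRP12, an export factor for pre-ribosomes, differed by -0.22 (limma adjusted p = 0.29, or 0.0228 with the block).

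The remaining small-subunit genes are part of the processome that assembles on the nascent precursor or of the later pre-40S particle, and 0 of them were called against DMSO without the block. HEATR1 averaged 4734 ± 684 in iDOT1L, 5408 ± 1146 in iEZH2 and 4686 ± 1053 in Combo, against 5466 ± 1048 in DMSO (SD, n = 4 each). Exons of LGALS8 on the opposite strand cover 23.2% of its exonic bases. UTP15, WDR43 and WDR75 belong with it to the t-UTP module, which also links to polymerase I transcription. UTP15 averaged 452 ± 71.7 in iDOT1L, 566 ± 142 in iEZH2 and 542 ± 160.5 in Combo, against 463 ± 66.7 in DMSO. WDR43 averaged 3236 ± 204 in iDOT1L, 3557 ± 586 in iEZH2 and 3404 ± 395 in Combo, against 3324 ± 451 in DMSO. WDR75 averaged 1409 ± 82.5 in iDOT1L, 1403 ± 83.4 in iEZH2 and 1524 ± 119.9 in Combo, against 1444 ± 105 in DMSO. Groups overlapped for all 3 of them. UTP14A, a cofactor of the helicase DHX37, averaged 1324 ± 109 in iDOT1L, 1584 ± 172 in iEZH2 and 1580.5 ± 74.5 in Combo, against 1418 ± 81.6 in DMSO. For UTP14A every Combo library lay above every iDOT1L library, with a difference of 0.26 (limma adjusted p = 0.142). UTP18 and NOP14 are further processome components. UTP18 averaged 1559.8 ± 151 in iDOT1L, 1663 ± 162 in iEZH2 and 1689 ± 107 in Combo, against 1627 ± 152 in DMSO. NOP14 averaged 3639.5 ± 278 in iDOT1L, 3964 ± 449 in iEZH2 and 3798 ± 336 in Combo, against 3638 ± 415 in DMSO.

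IMP3, the partner of IMP4 in the U3 particle, averaged 2102 ± 172 in iDOT1L, 2217 ± 229.7 in iEZH2 and 2354 ± 123 in Combo, against 2244 ± 149.6 in DMSO (SD, n = 4 each). On the opposite strand, exons of SNX33 cover 31.2% and those of AC105020.6 22.0% of IMP3's exonic bases. BYSL, LTV1 and PNO1 act late, in the pre-40S particle. BYSL averaged 1013 ± 157 in iDOT1L, 1159 ± 196 in iEZH2 and 1122 ± 101 in Combo, against 1079 ± 116 in DMSO. PNO1 averaged 631 ± 149 in iDOT1L, 788 ± 175 in iEZH2 and 738 ± 65.4 in Combo, against 662 ± 96.9 in DMSO. LTV1 averaged 1806 ± 301 in iDOT1L, 2181 ± 389 in iEZH2 and 1997 ± 115 in Combo, against 1882 ± 238 in DMSO, and 32.1% of the 31-base words of its transcripts also occur in other genes, so its level is uncertain. The Combo differences from DMSO were 0.07 for IMP3, 0.06 for BYSL, 0.16 for PNO1 and 0.09 for LTV1, with limma adjusted p from 0.575 to 0.818.

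RRS1, a large-subunit assembly factor that helps to bring the 5S ribonucleoprotein into the pre-ribosome, had the highest fold change of the 54 genes with each treatment. RRS1 (ENSG00000179041, chr8:66429028-66430733, plus strand) had 1244, 1969.9, 1606 and 1679.5 in iDOT1L, 1373, 2318, 2044 and 1836 in iEZH2, 2013, 2366, 2287 and 2114 in Combo, against 1182, 1489, 1211 and 1281 in DMSO. All Combo libraries lay above all DMSO libraries, while iDOT1L and iEZH2 overlapped DMSO through replicate 1. RRS1 rose with Combo by 0.77 ± 0.14 (limma adjusted p = 0.000957), and the call held without any 1 of the 8 libraries. RRS1 also rose with iEZH2, by 0.53 ± 0.14 (limma adjusted p = 0.0483), a call that held in 2 of 8 fits that left out a library. With iDOT1L the difference was 0.32 ± 0.14 (limma adjusted p = 0.249, or 0.0167 with the block). The RNA gene AC009879.2 on the same strand covers 11.4% of RRS1's exonic bases.

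Of the other 16 large-subunit factors 0 were called against DMSO without the block. PES1, BOP1 and WDR12 form the PeBoW complex, which matures the large subunit. With iDOT1L, the log2 differences were -0.24 for PES1, -0.11 for BOP1 and 0.05 for WDR12. With Combo the values were -0.04, 0.04 and 0.23 in the same order. PES1 passed with iDOT1L in the blocked fit only (limma adjusted p = 0.0377 with the block and 0.196 without). Exons of CFAP57 on the opposite strand cover 18.8% of the exonic bases of EBNA1BP2, a pre-60S factor. EBNA1BP2 was 0.36 with iEZH2 (limma adjusted p = 0.0877, or 0.00902 with the block), and NIP7, which binds pre-ribosomal RNA, was 0.31 (limma adjusted p = 0.31, or 0.0321 with the block). Exons of COG8 on the opposite strand cover 20.2% of the exonic bases of NIP7.

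The GTPases GNL2 and GNL3 (nucleostemin) act in the nucleolus, GNL2 in export of the large subunit. GNL2 averaged 1882 ± 244 in iDOT1L, 2068 ± 299.8 in iEZH2 and 2232 ± 117 in Combo, against 1916 ± 141 in DMSO (SD, n = 4 each). Every Combo library of GNL2 lay above every DMSO library, and the difference was 0.22 (limma adjusted p = 0.196). GNL3 averaged 4236 ± 507 in iDOT1L, 4904 ± 503 in iEZH2 and 4762 ± 198 in Combo, against 4439.8 ± 360.4 in DMSO. It was lower in iDOT1L than in iEZH2, at a log2 difference of -0.21, in the blocked fit alone (limma adjusted p = 0.0362 with the block and 0.224 without). DDX18 and DDX56 are RNA helicases of the large-subunit path. DDX56 averaged 1582 ± 239 in iDOT1L, 1711 ± 131 in iEZH2 and 1769 ± 87.9 in Combo, against 1594 ± 137 in DMSO. DDX18 averaged 3947 ± 411 in iDOT1L, 4315 ± 727 in iEZH2 and 3998 ± 659 in Combo, against 4409 ± 507 in DMSO. DDX18 differed from DMSO by -0.16 with iDOT1L and -0.15 with Combo, without passing the test.

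BRIX1, RPF2 and MRTO4 belong to the early pre-60S particle, where RPF2 works with RRS1 on the 5S ribonucleoprotein. For RPF2 the log2 fold change against DMSO was -0.13 in iDOT1L, 0.09 in iEZH2 and 0.04 in Combo. The intervals were -0.31 to 0.05, -0.09 to 0.27 and -0.14 to 0.22. RPF2 averaged 1512 ± 114 in iDOT1L, 1770.1 ± 179.6 in iEZH2 and 1701 ± 114 in Combo, against 1654 ± 46.8 in DMSO (SD, n = 4 each). BRIX1 averaged 1808 ± 319 in iDOT1L, 2334 ± 419.9 in iEZH2 and 2145 ± 82 in Combo, against 2091 ± 256 in DMSO. MRTO4 averaged 1858 ± 287 in iDOT1L, 2360.5 ± 364 in iEZH2 and 2179 ± 89 in Combo, against 2118 ± 266 in DMSO, and it was lower in iDOT1L than in iEZH2 in the blocked fit alone (limma adjusted p = 0.0066 with the block and 0.0949 without).

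NOP16, RRP1 and RRP1B are nucleolar proteins of the large-subunit path, and 0 of them were called against DMSO without the block. NOP16 averaged 1215 ± 221 in iDOT1L, 1449 ± 253 in iEZH2 and 1484 ± 106 in Combo, against 1261 ± 155 in DMSO (SD, n = 4 each). RRP1 averaged 1384 ± 75.2 in iDOT1L, 1472 ± 248 in iEZH2 and 1380.1 ± 212 in Combo, against 1487 ± 206 in DMSO. RRP1B averaged 2112 ± 281 in iDOT1L, 2330.2 ± 433 in iEZH2 and 2223 ± 308 in Combo, against 2159 ± 306 in DMSO. Of their differences from DMSO the highest was 0.24, for NOP16 with Combo (limma adjusted p = 0.273). NOP2, a cytosine methyltransferase of the large ribosomal RNA, averaged 1969.8 ± 326 in iDOT1L, 2162 ± 419.9 in iEZH2 and 2096 ± 368 in Combo, against 1949.8 ± 224 in DMSO, and since other genes hold 53.3% of its 31-base words, its level is uncertain.

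Between the single agents, most of the genes were lower in iDOT1L than in iEZH2, with a median log2 difference of -0.21 over the 54 and 0.00 over all tested genes, and 52 of the 54 lay below 0, as did 49.64% of all genes. Leaving out 1 library gave medians of the 54 from -0.28 to -0.14, the last without iEZH2 replicate 2. Without the block 4 of 54 passed in limma and all were lower in iDOT1L (6.94% of all genes in either direction, 3.06% lower): GAR1, EBNA1BP2, TCOF1 and PES1. With the block 25 of 54 passed, again all lower (14.3% of all genes in either direction, 6.91% lower). The number of calls depended on single libraries: without the block it was 0 without iDOT1L replicate 1, iEZH2 replicate 2 or iEZH2 replicate 3, 1 without iDOT1L replicate 3, 2 without iDOT1L replicate 4 and 12 without iEZH2 replicate 1. Between 4.32% and 7.07% of all genes were called in these 6 fits. Leaving replicate 1, 2, 3 or 4 out of the blocked fit gave 28, 12, 8 and 20 calls, beside 12.8%, 8.51%, 6.52% and 11.4% of all genes, and 1 of the 8 without replicate 3 was higher.

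Within replicate numbers the direction was shared by most genes. Of the 54 genes, 50 were lower in iDOT1L than in iEZH2 among replicates 1, 53 among replicates 2, 52 among replicates 3 and 46 among replicates 4. The median differences were -0.22, -0.30, -0.27 and -0.09 in that order. In 43 of the 54 iDOT1L was lower in all 4 replicate numbers, against 16.67% of all tested genes, and in 0 of the 54 was it higher in all 4. The genes moved together from library to library, so these counts rest on 4 library differences and not on 54 separate ones. Pairing by number was weak in replicates 3 and 4. There the correlations were 0.113 and 0.284, against 0.159 and 0.304 with another number. The libraries of the 2 groups did not overlap for 2 of the 54 genes, GAR1 and NPM1 (5.04% of all genes were lower without overlap).

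**Figure D3:**
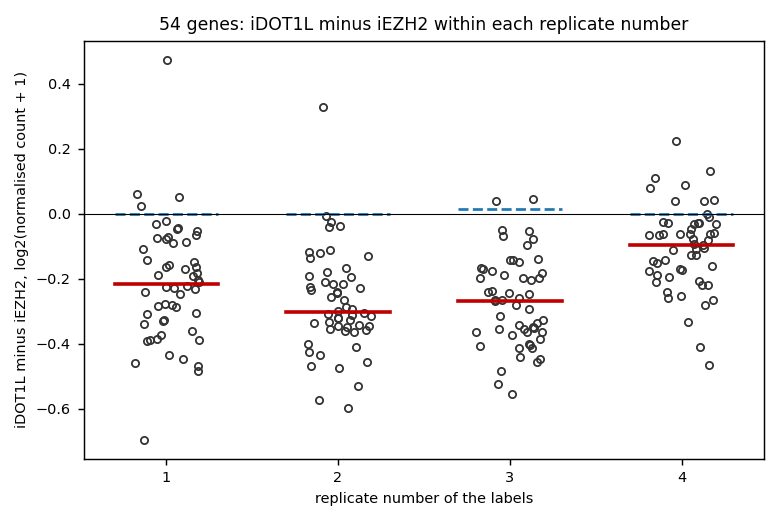
Difference of each of the 54 genes between iDOT1L and iEZH2 libraries of the same replicate number (vertical axis, log2 of normalised count plus 1); red bars are medians of the 54 genes and blue dashed bars medians of all tested genes. The red bars lie at -0.22, -0.30, -0.27 and -0.09, below the blue ones, which lie at or near 0. Points in a column come from the same libraries and are not independent.

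GAR1, the box H/ACA protein that helps substrate release, differed most between the single agents. GAR1 (ENSG00000109534, chr4:109815510-109824740, plus strand) had 612, 946, 832 and 868 in iDOT1L, against 991, 1366, 1223 and 971 in iEZH2, while Combo had 1032, 982, 1002 and 989.9 and DMSO 864, 1033, 871 and 953. Every iDOT1L library lay below every iEZH2 library, and both groups overlapped DMSO. The difference was -0.49 ± 0.13 (SE, limma adjusted p = 0.0238). It was called in 5 of 8 fits that left out a library.

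EBNA1BP2 had 1261, 1795, 1539.5 and 1618 in iDOT1L, against 1718, 2384, 2215 and 1938 in iEZH2. The groups overlapped through iDOT1L replicate 2 and iEZH2 replicate 1, and the difference was -0.41 ± 0.11 (limma adjusted p = 0.0282, called in 4 of 8 such fits). TCOF1, the treacle protein that recruits polymerase I factors to ribosomal DNA, had 2399, 3035, 2636 and 2498 in iDOT1L, against 2799.8, 3860, 3514 and 3321 in iEZH2. Its groups overlapped, again through iDOT1L replicate 2 and iEZH2 replicate 1, and the difference was -0.35 ± 0.10 (limma adjusted p = 0.0496, called in 2 of 8). PES1 had 2427, 3067, 2902 and 2846 in iDOT1L, against 3053, 3934, 3959 and 3206 in iEZH2, overlapping in the same libraries, with a difference of -0.33 ± 0.10 (limma adjusted p = 0.0498, called in 3 of 8).

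By role, the calls of the blocked fit between iDOT1L and iEZH2 covered 9 of the 17 large-subunit genes, 6 of the 16 small-subunit genes and 4 of the 5 multifunctional nucleolar proteins. They also covered 2 of the 6 polymerase I genes, 2 of the 4 box C/D genes, 2 of the 4 box H/ACA genes and 0 of MYC and MAX. In this fit 6.91% of all genes were lower. The split by role was not examined in the blocked fits that left out a replicate number, where the total ran from 8 to 28. IMP4 had the lowest blocked adjusted p, 0.000698 in limma, at a difference of -0.33. NCL was -0.28 (blocked limma adjusted p = 0.00376, or 0.142 without the block), and NPM1 was -0.22 (blocked limma adjusted p = 0.00906, or 0.0524 without the block). WDR12 and NAT10 were close to 0, at -0.03 and -0.05. The ribosomal protein share of counts overlapped between these groups, at 11.4% to 13.1% in iDOT1L and 10.9% to 13.5% in iEZH2. The mitochondrial share overlapped too, at 1.80% to 2.83% in iDOT1L and 1.85% to 3.20% in iEZH2.

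The 54 genes also ranked alike across the libraries of a group. In iDOT1L, 43 of the 54 were highest in replicate 2 and 46 were lowest in replicate 1. In iEZH2, 46 were highest in replicate 2 and 39 lowest in replicate 1, and in DMSO 46 were highest in replicate 2 and 27 lowest in replicate 1. Combo was less uniform, with 32 genes highest in replicate 2 and 22 lowest in replicate 1. Averaged over the 54 genes, the libraries deviated from each gene's own mean over 16 libraries by -0.32 to 0.06 in iDOT1L, -0.11 to 0.33 in iEZH2, -0.02 to 0.16 in Combo and -0.13 to 0.14 in DMSO on the log2 scale. FBL followed it in part: it was lowest in replicate 1 of both single-agent groups and highest in replicate 2 of DMSO, but highest in replicate 4 of both single-agent groups and replicate 1 of Combo. The labels do not say what the replicate number stands for.

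**Figure D4:**
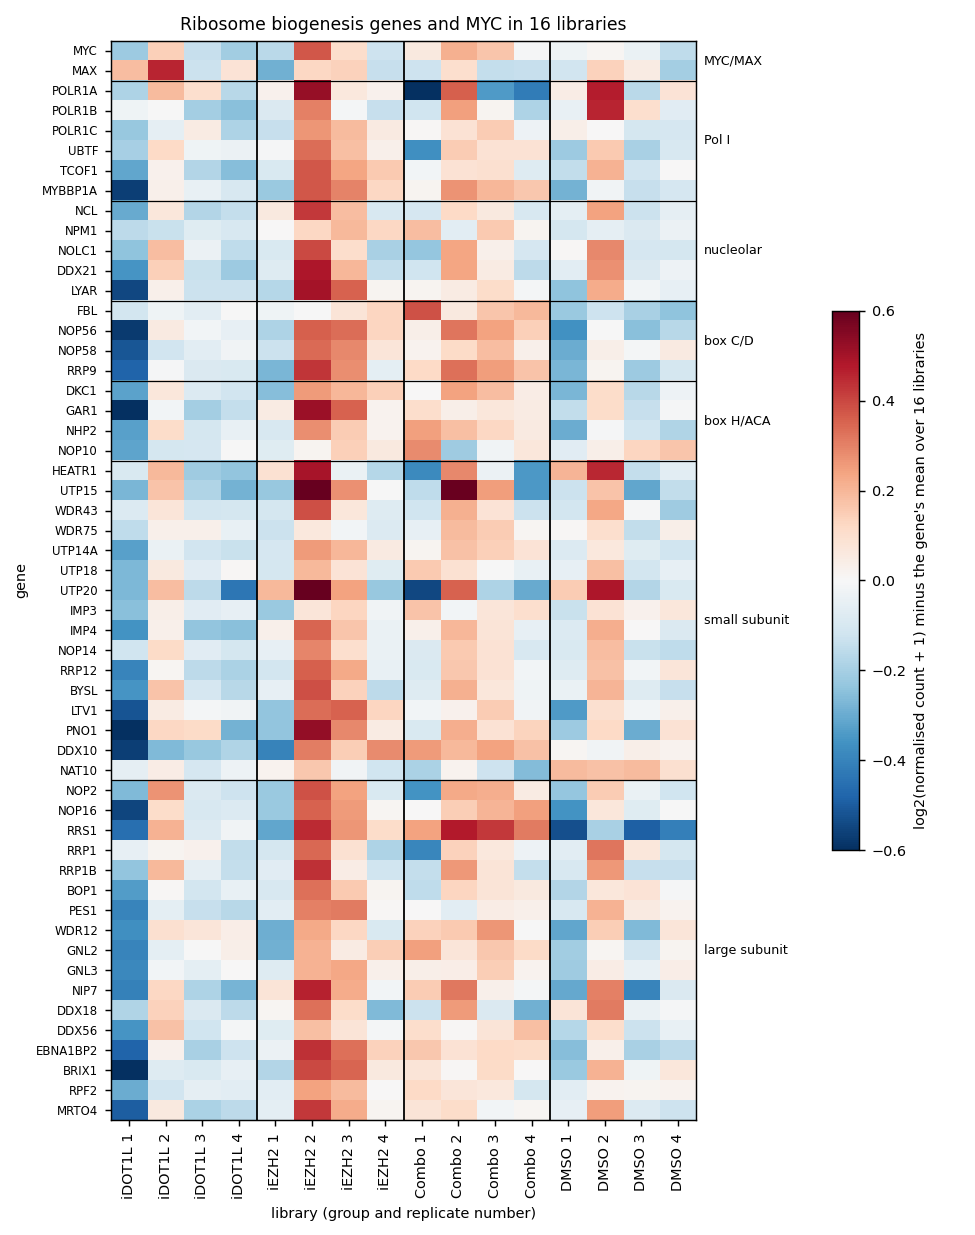
Each gene's log2(normalised count + 1) minus its own mean over the 16 libraries, with genes by role down the page and libraries by group across; the colour scale ends at -0.6 and 0.6. Replicate 1 of iDOT1L is low in nearly all rows (1 of 54 genes above its mean) and replicate 2 of iEZH2 is high (53 of 54).

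When Combo was set against iDOT1L, 49 of the 54 genes lay above 0, with a median of 0.18 for the 54 and 0.01 for all genes. The median was 0.12 without iDOT1L replicate 1. In 12 of the 54 every Combo library lay above every iDOT1L library (5.08% of all genes), and RRP9, at 1139, 1321, 1250 and 1180.3 in Combo against 753, 1044, 987 and 985 in iDOT1L, was one of them. The RRP9 difference was 0.38 ± 0.13 (limma adjusted p = 0.143). Combo against iEZH2 gave 0 calls in limma among the 54 genes, beside 3.81% of all genes. At an unadjusted p under 0.05 it gave 1 of the 54 genes and 3438 of all 22331 tested genes. Its median was -0.06 over the 54 genes and 0.00 over all genes.

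Whether the compounds together did more or less than the sum of their single effects was read from the interaction, Combo minus iDOT1L minus iEZH2 plus DMSO on the log2 scale. It was called for 0 of the 54 genes and for 0 of all 22331 tested genes (0%) in limma. At an unadjusted p under 0.05 it gave 1 of the 54 genes and 848 of all. That gene was DDX10, at 0.45 (interval 0.08 to 0.82). The interaction was -0.08 for RRS1 (interval -0.51 to 0.35), 0.01 for FBL (interval -0.21 to 0.23) and 0.11 for MYC (interval -0.20 to 0.43). With 4 libraries a group, these values leave room for departures of the sizes inside those intervals.

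E-box letters were searched in the promoters of these genes because most of the genes lay on the same side of 0 between the single agents and MYC-MAX dimers are known to bind the hexamer CACGTG. RefSeq windows on GRCh38.p14, from 250 bases before to 50 bases after each start, were matched for 44 of the 54 genes, with 54 windows. The hexamer, which reads the same on both strands, stood in 23 of the 44 genes (52.3%), against 10.9% of 15843 protein-coding genes. The genes were chosen as a class that MYC is known to drive, and the protein-coding genes were not filtered by expression. A higher share was therefore set by the choice of genes and says nothing about the compounds. By window it stood in 24 of 54 (44.4%), against 8.34% of protein-coding windows, and 21 of the 27 hexamers lay within 50 bases of the start. The stretches printed here are from genes called with or without the block, and show where the hexamer stands, with the hexamer in capitals and the strand of the gene.
FBL (chr19:39846356-39846385, minus strand): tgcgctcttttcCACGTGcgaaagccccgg
GAR1 (chr4:109815781-109815810, plus strand): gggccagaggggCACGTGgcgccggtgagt
NAT10 (chr11:34105602-34105631, plus strand): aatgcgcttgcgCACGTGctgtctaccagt
PES1 (chr22:30591880-30591909, minus strand): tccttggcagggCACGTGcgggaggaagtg
MYBBP1A (chr17:4555340-4555369, minus strand): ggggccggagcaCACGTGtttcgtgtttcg
IMP4 (chr2:130342900-130342929, plus strand): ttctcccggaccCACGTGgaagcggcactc
MRTO4 (chr1:19251807-19251836, plus strand): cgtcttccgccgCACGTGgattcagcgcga
DDX21 (chr10:68956604-68956633, plus strand): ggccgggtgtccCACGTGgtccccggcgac
GNL3 (chr3:52686026-52686055, plus strand): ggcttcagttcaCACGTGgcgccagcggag
RRP9 (chr3:51941892-51941921, minus strand): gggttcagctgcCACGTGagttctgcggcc
RRP9 was called in the blocked fits of Combo alone, where the numbers pair the libraries only in part, and is shown for the U3 particle.

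Fold changes of genes with and without the hexamer overlapped. For iDOT1L against iEZH2 the median log2 difference was -0.26 in the 23 genes with it, from -0.49 to -0.05, and -0.18 in the 21 genes without it, from -0.39 to 0.19. Against DMSO the medians with and without it were -0.09 and -0.06 for iDOT1L, 0.14 and 0.13 for iEZH2, and 0.06 and 0.10 for Combo. Their ranges overlapped in each of these comparisons. FBL, which rose with Combo, and NAT10, which fell, both hold the hexamer close to their starts, 6 bases after it in FBL and 15 before it in NAT10. NHP2, which also rose with Combo, was matched and does not hold the hexamer. DDX10, called between Combo and iDOT1L, was matched as well and does not hold it, whereas RRS1 had no matched window. None was found for the called gene TCOF1, which may be among the genes without a window. The letters mark no binding, which was not measured here.

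**Figure D5:**
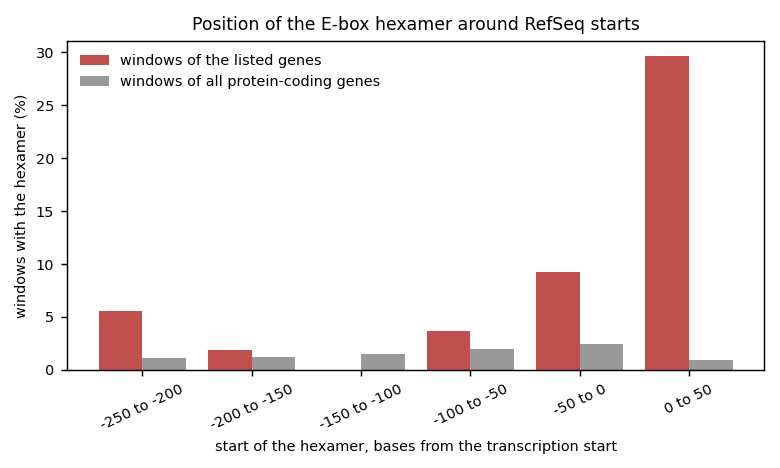
Share of RefSeq windows in which the E-box hexamer starts in each 50-base interval, for 54 windows of the listed genes (red) and 22199 windows of protein-coding genes (grey); the horizontal axis is distance from the transcription start in bases. In the first 50 bases after the start the share is 29.6% for the listed genes and 0.928% for protein-coding genes.

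Genes outside the 54 that belong to the same pathways were read from 7 lists, beside calls in 6.25% of all genes for iDOT1L, 3.35% for iEZH2 and, for Combo, 7.22% higher and 8.80% lower. Of 24 other genes known to respond to MYC, 0 rose and 4 fell with iDOT1L in limma, 0 rose and 1 fell with iEZH2, and 4 rose and 5 fell with Combo. With the block 0 rose and 6 fell with iDOT1L (12.2% of all genes in either direction), and 5 rose and 2 fell with iEZH2 (9.76%). LDHA, which makes lactate, averaged 23540 ± 2404 in iDOT1L, 24949 ± 2702 in iEZH2 and 17641 ± 2601 in Combo, against 33988 ± 495 in DMSO (SD, n = 4 each). It fell in all 3, with log2 fold changes of -0.54, -0.45 and -0.96 (limma adjusted p = 0.00196, 0.0131 and 2.11e-06). CCND2 (cyclin D2) fell with iDOT1L by 0.46 and with Combo by 0.46 (limma adjusted p = 0.00236 and 0.00102). Between iDOT1L and iEZH2 23 of these 24 genes lay below 0 and 5 were called lower, or 14 with the block (3.06% and 6.91% of all genes), among them ODC1, the first enzyme of polyamine synthesis, at -0.62 (limma adjusted p = 0.0153).

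In the MYC network, where MXD proteins compete with MYC for MAX, 13 of 14 listed genes were matched. MXD1 averaged 1136 ± 183 in iDOT1L, 686 ± 104 in iEZH2 and 1035 ± 93.4 in Combo, against 782 ± 59.2 in DMSO (SD, n = 4 each). MXD1 rose with iDOT1L by 0.53 and with Combo by 0.40 (limma adjusted p = 0.011 and 0.0285), and it was higher in iDOT1L than in iEZH2 by 0.73 (limma adjusted p = 0.000784). MXD3 rose with Combo by 0.66 (limma adjusted p = 0.0154), and MLXIP, a glucose-responsive network member, rose with iDOT1L by 0.32 (limma adjusted p = 0.0227). With iDOT1L 2 of the 13 rose and 0 fell, or 3 and 0 with the block (6.25% and 12.2% of all genes in either direction). With iEZH2 0 of the 13 were called without the block and 1 fell with it (3.35% and 9.76% of all genes in either direction). That gene, named after its values were seen, was MXI1, another competitor of MYC for MAX, at -0.61 (limma adjusted p = 3.92e-05 with the block and 0.139 without).

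In the remaining ribosome lists the single-agent comparisons gave more calls with the block than without it, as did all genes. With the block 12.2% of all genes were called for iDOT1L and 9.76% for iEZH2 (3.87% upward), and 6.91% were lower in iDOT1L than in iEZH2. Without it the shares were 6.25%, 3.35% and 3.06%, and 7.22% rose with Combo. Between the single agents 49.64% of all genes lay below 0. Of 11 other RNA polymerase I genes 2 rose with Combo, TWISTNB by 0.52 and TAF1D by 0.38 (limma adjusted p = 0.00102 and 0.00804), and 0 were called with either single agent without the block. With it 1 fell with iDOT1L and 2 rose with iEZH2, and between iDOT1L and iEZH2 1 was lower without the block and 3 with it. Of 35 other small-subunit factors 2 rose with Combo, WDR46 and UTP3, and between iDOT1L and iEZH2 32 lay below 0 and 2 were called lower, EMG1 at -0.56 and NOL6 at -0.46 (limma adjusted p = 0.0346 and 0.035). With the block 11 of the 35 were lower there, 4 fell with iDOT1L against DMSO and 2 rose with iEZH2. Of 36 other large-subunit factors 29 lay below 0 in that comparison and 1 was called lower, RRP15 at -0.71 (limma adjusted p = 0.0213). With the block 6 of the 36 were lower and 1 higher there, and against DMSO 3 rose and 4 fell with iDOT1L (0 and 1 without the block) and 1 rose with iEZH2. All 11 genes of small nucleolar ribonucleoprotein assembly lay below 0 there, with 0 called, or 2 with the block. With the block 1 of the 11 fell with iDOT1L and 1 rose with iEZH2 against DMSO. Of these 11, ZNHIT6 rose with Combo by 0.33 (limma adjusted p = 0.0285). In the 5S ribonucleoprotein list of 4 genes, GTF3A, the polymerase III factor for 5S genes, rose with Combo by 0.41 (limma adjusted p = 0.0232). In that list 0 were called with the single agents without the block, and with it 1 rose with iEZH2 and 1 was lower in iDOT1L than in iEZH2.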

How the data were processed

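RNA of 16 Molm14 libraries was measured, 4 per group. The submitters' processing notes name kallisto, DESeq2 and hg38; their versions, strand setting and annotation are not given. The deposited log2 values, scaled between libraries and variance-stabilised by the authors, share a lowest value of 6.28106, which stands for a count of 0. Applying the inverse function gave normalised counts. The table held no raw counts, so the branch of the design for values that are not counts was used. Reads per library were estimated from the spacing of low values, of which 62.7% to 65.7% came within 0.1 read of a whole number. The labels' extraction text speaks of a sort that the treatment text does not mention, and the treatment text was followed.

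The 22331 genes whose normalised count passed 1 in 4 or more libraries were tested with limma 3.58.1 (limma-trend, robust, R 4.3.3) on log2(normalised count + 1), with 4 group means, 12 residual degrees of freedom and Benjamini-Hochberg adjustment over all tested genes, called at an adjusted p under 0.05. Fold changes on this scale understate changes of low genes. The fitting step was tested on simulated data. Symbols came from GENCODE v29 (20784 IDs matched). Genes named were MYC, MAX, the called genes, the 2 highest of each role, and at most 3 called genes with the lowest adjusted p from each pathway list. ODC1, WDR46 and MXI1 were named outside that rule, and SHMT1, with a lower value than ODC1 (limma adjusted p = 0.00371 with Combo), was passed over. The other members were named, beyond that rule and after their values were seen, to account for all 54. The 54 genes and the lists were chosen with earlier results of these data known.

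Same-numbered libraries had residual correlations, over 12270 genes with a mean of at least 50, of 0.109 to 0.501 for iDOT1L with DMSO, 0.198 to 0.581 for iEZH2 with DMSO and 0.113 to 0.639 for iDOT1L with iEZH2. Every one was above 0.1, so blocked values are given for these comparisons. In replicates 1 and 2 these exceeded every correlation with another number. In replicates 3 and 4 the highest correlation with another number was larger in 5 of 6 cases (0.113 against 0.159 for iDOT1L with iEZH2 in replicate 3). Over 15457 genes with a mean of at least 10, those of replicate 3 were 0.0388 to 0.0973. Alternatives were another pseudocount, other filters, other scaling, the deposited values as they are, the compared groups alone, the block, and leaving out each library.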

Additional observations from a re-analysis of the deposited data

Results flagged for a closer look

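Of 140 groups of 4 libraries looked at (35 named genes in 4 groups), 10 held a library far from the other 3, beside the 5% that chance flags. For MAX the highest Combo library was replicate 2, at 750.2. UBTF was lowest in Combo replicate 1, at 3886. GNL3 was highest in Combo replicate 3, at 5057. In iDOT1L replicate 1, LTV1, GNL3 and BRIX1 were far below the other libraries of their group, at 1359, 3485 and 1331. In DMSO, DDX21 and NOP14 were highest in replicate 2, at 20797 and 4253, NAT10 was lowest in replicate 4, at 3874, and RPF2 was lowest in replicate 1, at 1584.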

How the results depend on the processing

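With the replicate block, calls among the 54 genes numbered 6 for iDOT1L, 9 for iEZH2 and 12 for Combo (24.6% of all genes) against DMSO, and 17 for Combo against iDOT1L (10.0%), MYC among them (limma adjusted p = 0.0482), 2 for Combo against iEZH2 (9.57% of all genes) and 25 for iDOT1L against iEZH2. Numbers paired the libraries only in part in the comparisons with Combo, where same-numbered correlations ran from 0.0362 to 0.4815. Leaving a replicate number out of the blocked fit, an alternative chosen after seeing the data, gave 4, 0, 0 and 0 calls for iDOT1L against DMSO (without replicate 1, 2, 3 and 4), 15, 4, 1 and 3 for iEZH2 against DMSO, and 28, 12, 8 and 20 for iDOT1L against iEZH2. A pseudocount of 8 gave 0 calls for iEZH2 against DMSO and 2 for iDOT1L against iEZH2. Equal totals gave 2 for iEZH2 against DMSO, and equal upper quartiles 8 for Combo against DMSO, beside 16.6% of all genes. Fitting the compared groups alone gave 0 for iEZH2 against DMSO, 7 for Combo against DMSO and 0 for iDOT1L against iEZH2, where fewer libraries estimate the spread. For the pseudocount of 8, equal totals and the compared groups alone, the shares of all genes called are not given here. Those counts are therefore not read as a result about the 54 genes. Leaving out 1 library gave 0 calls in each case for iDOT1L, 0 to 3 for iEZH2 and 2 to 5 for Combo against DMSO, 0 to 2 for Combo against iDOT1L, 0 to 1 for Combo against iEZH2 and 0 to 12 for iDOT1L against iEZH2. The MYC fold change ran from -0.01 (without iEZH2 replicate 2) to 0.17 (without iEZH2 replicate 1) for iEZH2 against DMSO, and from -0.0088 (without iEZH2 replicate 1) to 0.17 (without iEZH2 replicate 2) for Combo against iEZH2. The medians of the 54 genes kept their sign under each scaling and filter tried. With equal upper quartiles the median for Combo against iDOT1L was 0.22 and that for iDOT1L against iEZH2 -0.21. Leaving out 1 library changed the sign of the median for Combo against iEZH2 (-0.11 to 0.02) and for the interaction (-0.02 to 0.12), which had 0 calls under every alternative. Other causes of these shifts were not tested. At 20.6 M to 27.2 M reads each of these genes held at least 389 normalised counts in each library, and the number of libraries limits the precision.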
